A study of Mus musculus with 22 samples.

Results

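The 6 genes described here encode secreted proteins, most of which glial cells of the brain make in quantity: the lipid carriers clusterin (Clu), apolipoprotein E (Apoe) and apolipoprotein D (Apod), the lipase that takes fatty acids from lipoproteins (Lpl), and the matricellular proteins Sparc and Sparcl1. They were chosen by name and read from the raw count tables, where they are 6 of 20668 genes in the nuclei and 6 of 16304 genes in the whole cells. Hypothalamic RNA was measured in ob/ob mice, which lack leptin and are obese and diabetic, after a single intracerebroventricular (icv) injection of 3 µg of fibroblast growth factor 1 (FGF1) or of vehicle. All mice were male and 11 weeks old, all carried the ob/ob mutation, and vehicle mice were pair-fed, so food intake was matched by design. snRNA-seq was done on Day 1 (3 FGF1 and 3 vehicle mice) and on Day 5 (2 and 2), and scRNA-seq of dissociated, mostly glial cells on Day 5 (6 and 6).

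In the brain, lipids move between cells on particles built around Apoe and Clu. Astrocytes make most of both, transporters such as Abca1 load the particles with cholesterol, and receptors on other cells take them up. Apod, a lipocalin, binds small hydrophobic molecules and is made by oligodendrocytes and by fibroblasts of the vessels and meninges. Lpl, anchored on cell surfaces, hydrolyses triglycerides of the particles. Sparc and its relative Sparcl1 (hevin) act outside the cell without building the matrix: Sparcl1 from astrocytes promotes excitatory synapses, and Sparc opposes it. Tanycytes and ependymal cells, which line the third ventricle, are relatives of astrocytes and share part of this programme.

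On mouse genome GRCm38 the annotation (GENCODE vM21) places Clu at chr14:65968483-65981547 on the plus strand, Apoe at chr7:19696109-19699188 on the minus strand and Apod at chr16:31296192-31314808 on the minus strand. It places Lpl at chr8:68880491-68907448 on the plus strand, Sparc at chr11:55394500-55423183 on the minus strand and Sparcl1 at chr5:104079111-104113733 on the minus strand. Sparcl1 overlaps the antisense gene Gm26703 on the other strand. The promoters of Sparc, the member that fell in more clusters than any other on Day 5, and of Apoe, the member for which a single mouse most often stood apart, are shown as the 250 bases before the RefSeq start site (GRCm38.p6), each 5′ to 3′ on the gene's own strand.
Sparc promoter, chr11:55420081-55420330, minus strand: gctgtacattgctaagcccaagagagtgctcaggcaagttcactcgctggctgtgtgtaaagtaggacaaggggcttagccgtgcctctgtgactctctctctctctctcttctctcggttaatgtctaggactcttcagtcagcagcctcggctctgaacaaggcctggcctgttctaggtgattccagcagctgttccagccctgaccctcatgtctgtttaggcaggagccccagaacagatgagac
Apoe promoter, chr7:19699189-19699438, minus strand: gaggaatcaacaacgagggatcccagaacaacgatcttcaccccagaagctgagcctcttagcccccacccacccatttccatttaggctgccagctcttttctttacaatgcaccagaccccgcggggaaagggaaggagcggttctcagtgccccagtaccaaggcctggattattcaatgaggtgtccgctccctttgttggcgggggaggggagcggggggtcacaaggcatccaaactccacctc
The Sparc window lies inside the longer annotated gene span. RefSeq lists 3 starts for Apoe, and only the window of the first listed was examined. GC content was 54.0% in the Sparc window, 57.2% in the Apoe window and 36.4% in the Apod window, against a median of 52.4% over 32851 RefSeq promoters of the same length. CpG pairs numbered 4, 8 and 4, against a median of 6. On either strand, none of these windows held the AP-1 site TGANTCA (found in 6.75% of all promoters), the GC box GGGCGG (32.7%), the CCAAT box (33.8%), the TATA box TATAAA (12.4%) or the nuclear receptor element AGGTCA (14.0%).

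The nuclear tables held 24965 barcodes and 2721087 to 16345981 UMIs per mouse, and 54890 barcodes were held by the whole-cell tables, with 2652897 to 11866269 UMIs. UMIs of each gene were summed per mouse within a cell type and scaled by the total UMIs of that sum to CPM, with TMM factors in comparisons (normalised counts). Differences were tested with edgeR's quasi-likelihood test and called at an FDR below 0.05 over all genes tested in that type. In sums of this kind, fewer expressing cells and less RNA per cell cannot be told apart. On Day 1 FGF1 nuclei were shallower (median 2029 to 2816 UMIs per nucleus by mouse, against 3178.5 to 3776 after vehicle). FGF1 replicate 1 stood apart, with a median of 2.14% ribosomal UMIs against 0.87 to 1.26% in the other Day 1 mice, so Day 1 values of the members are also given without it. The nuclear types keep their deposited names: Astro, Tany (tanycytes), Epend (ependymal cells), VLMC (vascular leptomeningeal cells) and so on. Markers were counted as present in a type where 10% or more of the barcodes had a UMI and the CPM was 2 or more times that of the remaining barcodes. Olig, Micro and COP nuclei held 8 of 8, 8 of 9 and 7 of 7 of their own markers by this count and no neuron marker, but the summed level of 5 neuron markers was higher there (10372 to 19514 normalised CPM by mouse) than that of their own (532 to 3209.7). Results are not drawn from them alone. Tany nuclei held 7 of 10 tanycyte and 10 of 10 astrocyte markers, and Epend nuclei 6 of 6 ependymal and 10 of 10 astrocyte markers, so both go by their deposited label only. So do VLMC nuclei, which held 6 of 6 VLMC, 5 of 10 astrocyte and 4 of 7 endothelial markers. Whole cells are given by deposited cluster number, with names set here by marker genes: astrocyte-like (clusters 1 and 4), tanycyte-like (0, 7 and 10), ependymal-like (6), oligodendrocyte-like (2, 11 and 12), OPC-like (oligodendrocyte precursors, 5 and 17) and COP-like (committed oligodendrocyte precursors, 9). Some named clusters also held markers of another class. Endothelial-like cluster 3 held 7 of 7 endothelial and 6 of 6 pericyte markers. Macrophage-like cluster 16 held 5 of 6 macrophage and 6 of 9 microglia markers, and cluster 9 held 7 of 7 COP and 4 of 8 oligodendrocyte markers. Different libraries of one kind shared 318 of 24645 different nuclear barcodes and 1791 of 53065 whole-cell barcodes.

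In whole cells of vehicle mice, Clu, Apoe, Sparc and Sparcl1 had their highest median in astrocyte-like cluster 4 among clusters present in at least 4 mice, and Apod its highest in VLMC-like cluster 13. The median Clu level over mice, in CPM with the lowest and highest mouse, was 2660.4 (1859 to 3799) in cluster 4, 1785 (1686 to 2513) in cluster 1 and 1299.5 (1192 to 1940.1) in cluster 6, with overlapping ranges, and the lowest median was 271 in oligodendrocyte-like cluster 11. Apoe was widespread: 4999 (3718 to 7901) in cluster 4, 4724 (2597 to 7679) in cluster 16, 4082 (2635 to 9199) in cluster 7, 3246 (1869 to 6469) in cluster 10 and 3118 (2324 to 8146) in cluster 1, 5 clusters of astrocyte-like, macrophage-like and tanycyte-like cells whose ranges overlapped, so their order is not resolved. It was lowest in cluster 9 (382).

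Apod stood at 4477 (1306 to 7037) in cluster 13, above every mouse's value in the next clusters, oligodendrocyte-like 12, 2 and 11 (medians 825, 706 and 679), which overlapped each other. In astrocyte-like and tanycyte-like clusters its medians were at or below 20.8. Sparc was 5344 (4362 to 5628) in cluster 4 and 3827 (3598 to 4493) in cluster 1, and then 3288 in pericyte-like cluster 15, 3250.3 in endothelial-like cluster 3 and 2817 in microglia-like cluster 8. Neighbours in that order overlapped. Sparc was lowest in COP-like cluster 9 (965). Sparcl1 was 5408 (4287 to 5731) in cluster 4 and 3935 (3373 to 4263) in cluster 1, ranges that did not overlap, and lowest in tanycyte-like cluster 7 (488). Lpl was near absent: outside smooth muscle-like cluster 19, where it rested on 2 UMIs, no cluster median exceeded 8.31.

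**Figure D1:**
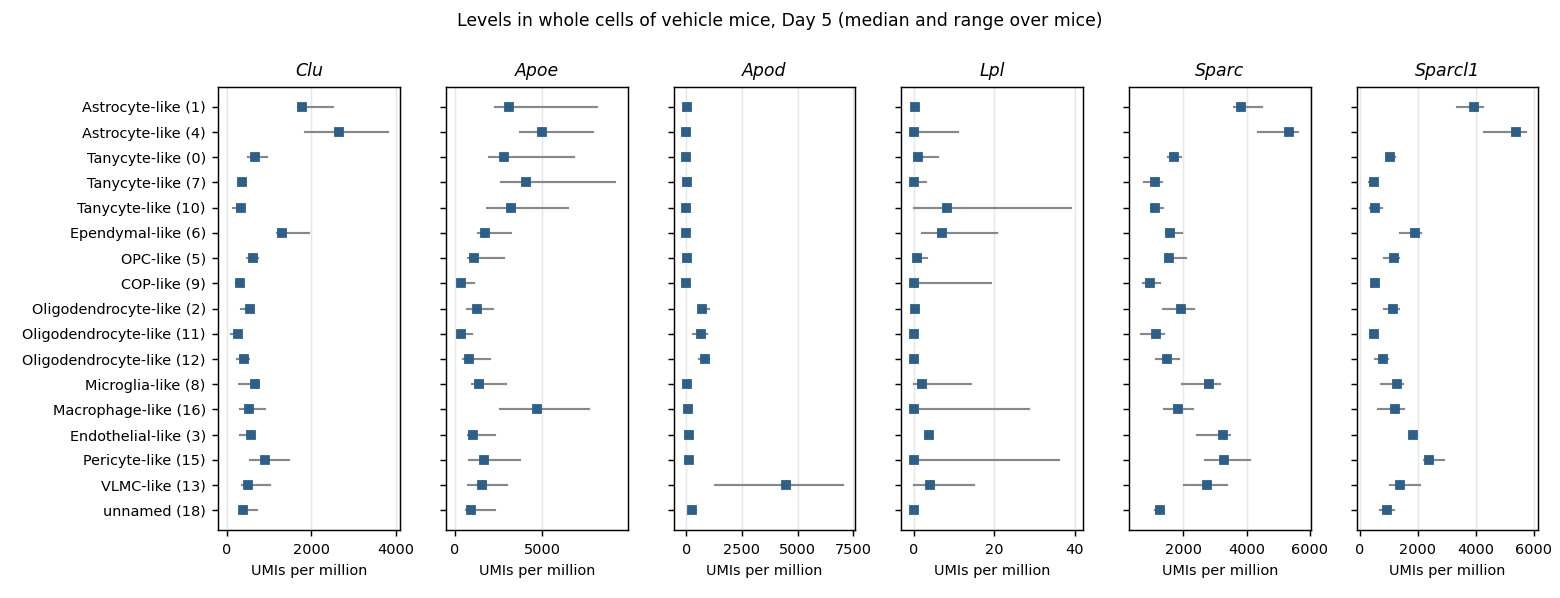
Level of each of the 6 genes (CPM, linear axes that differ between genes) in the whole-cell clusters of vehicle mice on Day 5. Squares are medians over mice and lines run from the lowest to the highest mouse, for clusters with at least 10 cells in at least 4 mice. Astrocyte-like clusters 1 and 4 lead for Sparcl1, and VLMC-like cluster 13 leads for Apod.

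In nuclei of the 5 vehicle mice of both days, Astro again had the highest median of Clu, Sparc and Sparcl1, while Apoe was 2033 in Astro (1162 to 4381), 2029 in Epend (2005 to 2477) and 1765 in Tany (1006 to 1911) CPM, an order in which the first places overlapped. Sparc was 2444 in Astro (1248 to 3866) and 1101 in Epend (726 to 1146), and Sparcl1 2681 in Astro (1822 to 3233) and 902 in Epend (858 to 1024). For both, no Astro value overlapped Epend. Apod was 695 in VLMC (658 to 1815) and 190.2 in Olig (105 to 289). Lpl values in nuclei came from few UMIs, mostly in neuronal types.

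The genes with the most similar pattern over 19 whole-cell clusters of vehicle mice were taken from 7813 genes by Pearson's r of log2(CPM + 1). These are descriptions over clusters from the same mice, which share depth. For Clu they were Cbs (r = 0.886), Etnppl (r = 0.859) and Maob (r = 0.850), genes of astrocyte amino acid and amine metabolism. For Apoe they were Aldh7a1 (r = 0.908), Apoc1 (r = 0.871) and Aldoc (r = 0.855), the second its neighbour on the chromosome and itself an apolipoprotein. Apod was most like Ptgds (r = 0.896), Pdlim2 (r = 0.846) and Ndrg1 (r = 0.783). For Sparc they were Agt (r = 0.895), Fgfr3 (r = 0.890) and Ndrg2 (r = 0.869), and for Sparcl1 Fgfr3 (r = 0.886), Nt5c2 (r = 0.853) and Sparc (r = 0.842), so the receptor Fgfr3 was among the most similar genes to both. For Lpl, Pald1 (r = 0.805), Fosl2 (r = 0.804) and Iigp1 (r = 0.803) came first, at levels too low for the order to carry weight.

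On Day 1, Sparcl1 fell in the nuclei labelled Epend and Tany, and Clu rose in those labelled Tany. Markers of another class were high in both labels, with sums given beside each result. Of 54 tests of the members over 18 nuclear types, 3 were called, against 1.05% of all tests of all genes (1 rose, against 0.653% of all tests, and 2 fell, against 0.393%). The background was higher in the types concerned: 9.14% of genes in Tany and 19.0% in Epend, so calls in these types were not rare. Groups did not overlap in 8 of the 54, a share near the 15.8% of all tests.

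The steepest fall was that of Sparcl1, the synapse-promoting protein, in Epend nuclei. Its normalised counts, given here and for the other Day 1 results in the order of replicates 1, 2 and 3, were 417, 379.6 and 103 after FGF1 and 1986, 1616 and 1804 after vehicle. Every FGF1 value lay below every vehicle value (log2 fold change -2.53, SE 0.37, FDR = 0.000155), and the means were 299.7 ± 172 (SD, n = 3) against 1802 ± 185 (SD, n = 3). The FGF1 values rest on 14, 16 and 3 UMIs, against 67, 52 and 63 after vehicle. The call held in 12 of 12 alternative settings (-2.74 to -2.14), leaving out any 1 mouse included, and was -2.74 (FDR = 0.000748) without FGF1 replicate 1. Clu in the same nuclei was 2175, 2064 and 1401 after FGF1 and 2105, 2021 and 1689 after vehicle, with overlapping values (log2 fold change -0.04, FDR = 0.943), and -0.09 (FDR = 0.904) without FGF1 replicate 1. Markers moved too in these nuclei: the sum of 6 ependymal markers was 873 to 1489 after FGF1 and 2750.0 to 3712 after vehicle, that of 10 tanycyte markers 2547 to 3068 after FGF1 and 831 to 1089 after vehicle, and that of 10 astrocyte markers 1148 to 2192 after FGF1 and 2953 to 4082 after vehicle. After FGF1 the tanycyte sum was thus above the ependymal sum in these nuclei, and after vehicle the reverse held. Their part in the Sparcl1 value was not tested.

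In Tany nuclei, Clu, the chaperone-like lipid carrier, stood at 2039.8, 1659 and 971 after FGF1 and 352, 599 and 538 after vehicle. All 3 FGF1 values were above all 3 vehicle values (log2 fold change 1.66, SE 0.42, FDR = 0.0274), with means of 1557 ± 542 (SD, n = 3) against 497 ± 128 (SD, n = 3) and within-batch log2 differences of 0.70 to 2.24. The direction held throughout, and without FGF1 replicate 1 the value was 1.43 (FDR = 0.0366). The call was lost without FGF1 replicate 2 (FDR = 0.0788) or without vehicle replicate 1, 2 or 3 (FDR = 0.215, 0.0552 and 0.0890), and with the batch or the replicate number as a block (FDR = 0.117 and 0.0694). Sparcl1 in Tany nuclei was 393, 503 and 285 after FGF1 and 1048, 1114 and 825 after vehicle, again without overlap (log2 fold change -1.33, SE 0.38, FDR = 0.0469). That call stood close to the threshold and was lost on leaving out any of the 6 mice, with -1.29 (FDR = 0.0640) without FGF1 replicate 1 (FDR up to 0.186). It was also lost with the batch or the replicate number as a block (FDR = 0.169 and 0.0811), with RLE scaling (FDR = 0.0513) and with no filter on low counts (FDR = 0.1002). Tany nuclei had astrocyte marker sums of 2187 to 3351 after FGF1 and 3223 to 5390.1 after vehicle, and tanycyte marker sums of 1948 to 3181 after FGF1 and 1444 to 2296 after vehicle. Their part was not tested. Groups did not overlap for 27.8% of all genes in Tany and 36.5% in Epend.

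In Astro nuclei nothing was called among the members, where 1.55% of all genes were. Clu was 6778, 3437 and 2512 after FGF1 and 1098, 2219.5 and 809.6 after vehicle, higher in all FGF1 mice but widely spread (log2 fold change 1.62, SE 0.67, FDR = 0.432). Sparcl1 was 1868, 961 and 735 after FGF1 and 2985, 3224 and 1926 after vehicle, lower in all FGF1 mice (log2 fold change -1.19, FDR = 0.609). Without FGF1 replicate 1 the values were 1.07 (FDR = 0.390) for Clu and -1.70 (FDR = 0.128) for Sparcl1. Over types, the fitted Clu change was positive in 16 of 18 (median 0.68) and that of Sparcl1 negative in 11 of 11 (median -0.77), while the median of all genes lay between -0.05 and 0.03 in each type. In the neuronal types Clu was positive in 10 of 11, with none called. Sparc was negative in 8 of 9 types (median -0.39) and Apod, tested in 5, was not called. Lpl passed the filter on low counts in no type. These types come from the same mice, so their shared direction is not independent. Without FGF1 replicate 1, Clu was positive in 10 of 16 types (median 0.16) and Sparcl1 negative in 12 of 12 (-1.21), Sparc was negative in 9 of 10 (-0.58), and Clu in VLMC went from 0.37 to -2.76 (FDR = 0.0195), where a single FGF1 mouse was left and was assumed to vary like the vehicle mice.

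For Apoe, the main lipid carrier of the brain, 1 mouse decided the direction in 10 of 11 types. FGF1 replicate 1 had the highest Apoe of the FGF1 mice in 11 of 11 types. In Tany nuclei Apoe was 6859.7, 545 and 368 after FGF1 and 2485, 2508 and 2153 after vehicle. FGF1 replicate 1 lay above all vehicle mice and the other FGF1 mice below them all. In Astro it was 16428, 779.9 and 561 after FGF1 and 2263, 2407 and 1456 after vehicle, and in Epend 4141, 973 and 752 after FGF1 and 4803, 3824 and 4009 after vehicle. With all mice the changes were 1.54, 0.14 and -1.11 in Astro, Tany and Epend (FDR = 0.843, 0.943 and 0.226). Without FGF1 replicate 1 they were -1.63, -2.35 and -2.21 (FDR = 0.147, 0.00362 and 0.00150), called in Tany and Epend. In Epend it was also called with the replicate number as a block (-1.49, FDR = 0.0366) and with no filter on low counts (-1.17, FDR = 0.0102). In VLMC, with 2 FGF1 mice, Apoe was 1.61 (FDR = 0.302), -1.62 without FGF1 replicate 1 (FDR = 0.240) and 2.50 without FGF1 replicate 3 (FDR = 0.0179). Leaving out either leaves 1 FGF1 mouse, assumed to vary like the vehicle mice. With FGF1 replicate 1 the change was positive in 10 of 11 types, and without it negative in 11 of 11.

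**Figure D2:**
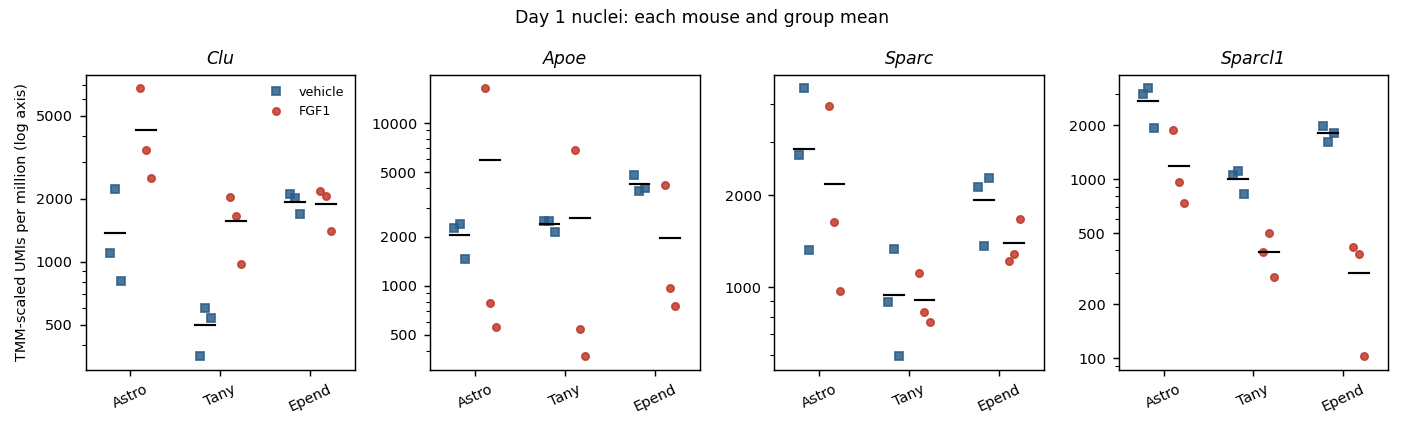
Normalised counts (CPM, TMM scaled, log axis) of Clu, Apoe, Sparc and Sparcl1 in Astro, Tany and Epend nuclei on Day 1, with 1 point per mouse and a bar at the group mean. Sparcl1 values do not overlap between FGF1 and vehicle in Tany and Epend, and a single FGF1 mouse stands high for Apoe.

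On Day 5, 2 nuclear libraries per group covered 11 types, and Tany and Epend could not be tested for lack of nuclei. None of 41 member tests was called by edgeR (9 had an unadjusted p under 0.05), against 0.288% of all tests. DESeq2 called 1, Clu in Astro, and edgeR with the batch as a block called 1, Clu in the neuronal type n29.Nr5a1/Adcyap1 (1.06, FDR = 0.00803). In Astro, Clu was 3076 and 7874 in FGF1 replicates 37 and 45 and 1998 and 1271 in vehicle replicates 28 and 38. Both FGF1 values were higher (log2 fold change 1.74, SE 0.43, FDR = 0.0696), but groups did not overlap for 41.4% of genes in Astro. This value passed with DESeq2, RLE scaling, no filter on low counts or the stated mitochondrial and ribosomal limits (FDR = 0.0124, 0.0467, 0.00202 and 0.0250). Clu was positive in 9 of 9 types (median 1.12), Sparcl1 in 8 of 9 (0.32), and Apoe negative in 7 of 8 (-0.40). These types come from the same mice, so their shared direction is not independent. FGF1 replicate 45 was the higher FGF1 mouse in 9 of 9 types for Clu, 8 of 9 for Sparcl1 and 5 of 8 for Apoe. In Astro, Sparcl1 was 4296 and 7193 against 3678 and 2337 (FDR = 0.285), and Sparc, at 2625 and 4995 against 4289.7 and 2449.9, overlapped. So did Apoe, at 1724 and 2422 against 4985 and 1186.

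Whether the FGF1 effect changed from Day 1 to Day 5 was tested in the nuclei as an interaction. None of 48 member tests was called by edgeR or DESeq2 (0.00784% of all tests were), and 4 had an unadjusted p under 0.05, all for Sparcl1. In Astro the Sparcl1 effect moved by 2.13 ± 0.85 on the log2 scale (SE, FDR = 0.566), from a negative value on Day 1 to a positive one on Day 5. Days were sequenced as separate mice and batches, so day and batch cannot be told apart.

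In whole cells on Day 5, Clu rose in astrocyte-like cells, and Sparc and Sparcl1 fell in tanycyte-like clusters 0 and 10. Of 73 member tests over 16 clusters, 9 were called (3 higher and 6 lower after FGF1), against 1.75% of all tests (0.854% higher and 0.896% lower), and groups did not overlap in 4, against 1.60%. Clu in astrocyte-like cluster 1 was, as lowest, median and highest mouse, 1943, 3361 and 4866 after FGF1 and 1787, 1921 and 2648 after vehicle. The ranges overlapped, with the vehicle maximum below the FGF1 median (log2 fold change 0.78, SE 0.15, FDR = 0.0110). In astrocyte-like cluster 4 it was 3835, 4641 and 5665 after FGF1 and 1957, 2852 and 4122 after vehicle (log2 fold change 0.70, SE 0.13, FDR = 0.00293). Here too only the tails overlapped. Each of these calls held in 18 of 18 alternatives, in clusters where 0.404% and 0.385% of all genes were called.

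The astrocyte-like cells were split differently by treatment: cluster 4 held 3412 FGF1 and 697 vehicle cells, and cluster 1 held 1531 and 7940. With both merged, Clu was 3258, 4024 and 5062 after FGF1 and 1764, 1936 and 2849 after vehicle, or 4116 ± 703 (SD, n = 6) against 2051 ± 399 (SD, n = 6). Every FGF1 mouse exceeded every vehicle mouse, and the FGF1 mouse was higher in 6 of 6 batches, by 0.19 to 1.52 on the log2 scale (log2 fold change 1.00, SE 0.12, FDR = 3.58e-06). Sparcl1 in the merged class was 5015, 5704 and 6995 after FGF1 and 3628, 4247 and 4512 after vehicle, again without overlap (log2 fold change 0.47, SE 0.10, FDR = 0.00235, higher in 6 of 6 batches). Within the single clusters 1 and 4, however, Sparcl1 was not called, with log2 fold changes of 0.25 and 0.25 (FDR = 0.482 and 0.392), and cluster 4 had the higher level in vehicle mice. With no filter on low counts the value in cluster 4 was 0.42 and passed (FDR = 0.0250). In the merged class 12.6% of all genes were called and 5.16% did not overlap. The sum of 10 astrocyte markers there was 15087 to 18378 after FGF1 and 12482 to 15005 after vehicle. It includes Gfap and Aqp4, which the authors listed among the top raised genes of astrocytes on Day 5. The part of this sum was not tested.

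Sparc, the antagonist of Sparcl1, was not called in the merged astrocyte-like class (log2 fold change 0.11, SE 0.09, FDR = 0.508), and neither was Apoe (log2 fold change 0.26, SE 0.36, FDR = 0.710). In clusters 1 and 4 taken singly, however, the fitted Sparc change was negative, and called in neither. The value near 0 was that of cluster 4 (-0.06). The Sparc effect in tanycyte-like cluster 0, given below, differed from that in cluster 1 by only -0.07 (FDR = 0.887), a comparison made after seeing the data. Cluster 4 had the higher Sparc median in vehicle mice (5344 against 3827 CPM in cluster 1). The part of the unequal split of cells in the merged value was not tested. Thinned to 757 UMIs per cell, 91.4% of astrocyte-like cells had a Clu UMI after FGF1 and 73.4% after vehicle (95.8% and 84.2% unthinned). These are single values per group over the unequally split astrocyte-like clusters, given without the spread over mice. In oligodendrocyte-like cells, where Clu is low, the thinned shares were 28.5% and 28.9%.

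In tanycyte-like cluster 0, Sparc was 995, 1183 and 1424 after FGF1 and 1572, 1698 and 1966 after vehicle. No FGF1 mouse reached the lowest vehicle mouse (log2 fold change -0.51, SE 0.11, FDR = 0.00348), and the FGF1 mouse was lower in 6 of 6 batches (log2 differences of -0.77 to -0.27). The call held in 18 of 18 alternatives, in a cluster where 5.27% of all genes were called. In tanycyte-like cluster 10, Sparc was 771, 938 and 1152 after FGF1 and 1213, 1401 and 1746 after vehicle, also without overlap (log2 fold change -0.58, SE 0.13, FDR = 0.0122). That call was lost without vehicle replicate 25 (FDR = 0.0665) and with no filter on low counts (FDR = 0.215). In cluster 10, 2.13% of all genes were called.

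Sparcl1 fell in the same clusters. In cluster 0 it was 639, 774 and 1007 after FGF1 and 1002, 1074 and 1171 after vehicle, with the highest FGF1 mouse just above the lowest vehicle mouse (log2 fold change -0.45, SE 0.11, FDR = 0.0123). In cluster 10 it was 281, 371 and 510.4 after FGF1 and 447, 654 and 951 after vehicle (log2 fold change -0.88, SE 0.18, FDR = 0.00881). The ranges overlapped at their ends, and both calls held in 18 of 18 alternatives. In tanycyte-like cluster 7 neither was called: over 5 FGF1 and 6 vehicle mice, Sparc was 848, 998.6 and 1170.1 after FGF1 and 862, 1222 and 1529 after vehicle (log2 fold change -0.29, SE 0.13, FDR = 0.256) and Sparcl1 316, 473 and 543 after FGF1 and 365, 548 and 694 after vehicle (log2 fold change -0.22, SE 0.16, FDR = 0.516), with overlap. In the merged tanycyte-like class (clusters 0, 7 and 10, of which cluster 7 held 2728 FGF1 and 590 vehicle cells) Sparc fell by 0.55 and Sparcl1 by 0.59 on the log2 scale (FDR = 0.00614 and 0.00993, with 5.08% of all genes called). Thinned shares of tanycyte-like cells with a UMI were 50.6% against 66.3% for Sparc (73.6% and 83.9% unthinned) and 32.3% against 45.3% for Sparcl1 (50.6% and 62.4%). These are single values per group over unequally split clusters, without the spread over mice. No cluster was low enough in either gene to give a background share (lowest vehicle medians 965 CPM for Sparc and 488 for Sparcl1). Astrocyte markers moved beside them: the sum of 10 was 3271 to 4197 after FGF1 and 4825 to 6469.5 after vehicle in cluster 0 and 1692 to 2394 after FGF1 and 2364 to 3784 after vehicle in cluster 10, and the tanycyte marker sum in the merged class was 3061 to 3986 after FGF1 and 2437 to 2903 after vehicle. Their part was not tested.

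Sparc fell in oligodendrocyte precursors as well. It was 956, 1309.5 and 1743 after FGF1 and 1583, 1739 and 2412 after vehicle in OPC-like cluster 5 (log2 fold change -0.50, SE 0.12, FDR = 0.0213) and 606, 711 and 891 after FGF1 and 805, 1095 and 1458 after vehicle in COP-like cluster 9 (log2 fold change -0.60, SE 0.15, FDR = 0.0319), where 2.39% and 1.25% of all genes were called. The ranges overlapped in both, and each call was lost on leaving out any of 5 mice in turn: FGF1 replicate 10, 21 or 7 and vehicle replicate 20 or 25 in cluster 5 (FDR up to 0.0819), and vehicle replicate 20, 22, 25, 27 or 29 in cluster 9 (FDR = 0.170, 0.162, 0.318, 0.0582 and 0.111). The value without vehicle replicate 25 was -0.40 there. In cluster 9 the call was lost as well with the batch as a block (FDR = 0.0502), at a minimum of 20 cells per mouse (FDR = 0.0656) and with no filter on low counts, where the value was -0.26 (FDR = 0.515). Over all 16 clusters the fitted Sparc change was negative in every one (median -0.38, -0.76 to -0.06), with an unadjusted p under 0.05 in 12, while the median of all genes stayed between -0.03 and 0.02. The clusters share mice, so these are not 16 independent values. In oligodendrocyte-like cluster 12 (-0.76, FDR = 0.0561) Sparc passed with the batch as a block (-0.75, FDR = 0.00495), with DESeq2, RLE scaling or no filter on low counts (FDR = 0.0242, 0.0486 and 0.0275), and without FGF1 replicate 36 or 6 or vehicle replicate 22 or 35 (FDR = 0.0445, 0.0203, 0.0319 and 0.0109). In the merged classes Sparc fell in OPC-like cells (log2 fold change -0.52, SE 0.13, FDR = 0.0141), kept in 17 of 17 alternatives, and in oligodendrocyte-like cells (log2 fold change -0.54, SE 0.13, FDR = 0.0208), kept in 14 of 17 and lost without FGF1 replicate 21 or 7 or vehicle replicate 25 (FDR = 0.0565, 0.0791 and 0.0816). Of all genes, 3.24% and 2.25% were called in these classes, which merge clusters of unequal size in the groups. Among single clusters the value nearest 0 was that of astrocyte-like cluster 4 (-0.06, FDR = 0.936).

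**Figure D3:**
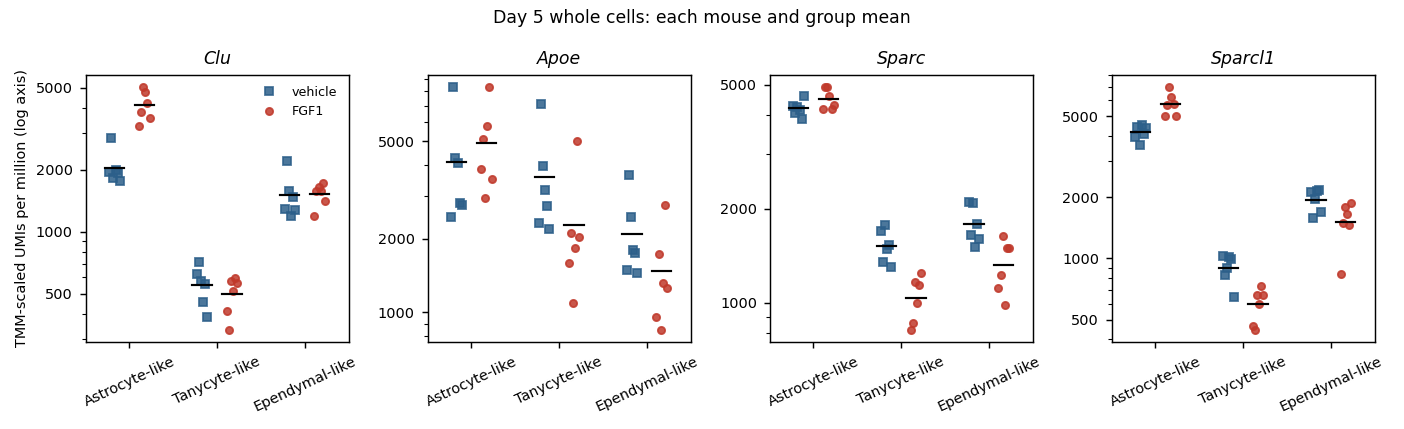
Normalised counts (CPM, TMM scaled, log axis) of Clu, Apoe, Sparc and Sparcl1 in the merged astrocyte-like, tanycyte-like and ependymal-like classes on Day 5, with 1 point per mouse and a bar at the group mean. Clu in astrocyte-like and Sparc in tanycyte-like cells separate the groups without overlap.

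Apod, the lipocalin of oligodendrocytes, rose in oligodendrocyte-like cluster 12. It was 1603, 1585, 1939.7 and 1534 in the 4 FGF1 mice with at least 10 cells there (replicates 6, 7, 10 and 36) and 727, 987 and 1177 as lowest, median and highest of 6 vehicle mice. All FGF1 mice exceeded all vehicle mice (log2 fold change 0.81, SE 0.16, FDR = 0.0185), with 0.0888% of all genes called in that cluster. Cluster 12 held 223 FGF1 and 952 vehicle cells. The call was lost without FGF1 replicate 10 (FDR = 0.153), without vehicle replicate 20, 25 or 29 (FDR = 0.0565, 0.102 and 0.0687), and at a minimum of 20 cells per mouse or with no filter on low counts (FDR = 0.153 and 0.203). In the other oligodendrocyte-like clusters the log2 fold change of Apod was 0.01 (cluster 2, FDR = 1.000) and 0.74 (cluster 11, FDR = 0.102). In cluster 11 it passed with the batch as a block (0.73, FDR = 0.0221), without FGF1 replicate 28 or 6 (FDR = 0.0385 and 0.0214) and with no filter on low counts (1.04, FDR = 6.22e-07). In VLMC-like cluster 13, where Apod is highest, it was 4074, 6178 and 21657 after FGF1 and 2107, 6930.0 and 10135 after vehicle, with 1 FGF1 mouse far above the rest (FDR = 1.000). In the merged oligodendrocyte-like class, where cluster 2 held 1799 FGF1 and 5610 vehicle cells and cluster 11 held 1212 and 166, Apod was 831, 1006 and 1369 after FGF1 and 591, 763 and 1018 after vehicle and was not called (log2 fold change 0.39, SE 0.14, FDR = 0.114). Over these unequally split clusters, thinned shares of cells with an Apod UMI were 47.7% after FGF1 and 38.0% after vehicle in oligodendrocyte-like cells (66.6% and 54.3% unthinned), and 1.05% and 1.33% in astrocyte-like cells.

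Apoe was called in none of 16 clusters by edgeR, although the fitted change was negative in 14 (median -0.41). An unadjusted p under 0.05 was found in 1. That was oligodendrocyte-like cluster 12 (-1.31, FDR = 0.333), where Apoe passed with the batch as a block (-1.39, FDR = 1.44e-07). FGF1 replicate 28 had too few cells there to enter, while vehicle replicate 22 entered. Without vehicle replicate 22 the value was -0.92 (FDR = 0.191). The block used only batches with a mouse of each group. In tanycyte-like cluster 0 it was 1076, 1838 and 4783 after FGF1 and 2004, 2774 and 6989 after vehicle, and in astrocyte-like cluster 1 2237, 3432 and 7879 after FGF1 and 2429, 3350.2 and 8583 after vehicle. In both clusters the mice of a group spread more widely than the groups differed (log2 fold changes -0.61 and -0.03). Single mice carried much of the spread: FGF1 replicate 28 was the highest FGF1 mouse in 13 of 16 clusters, and vehicle replicate 22 the highest vehicle mouse in 16 of 16. In the merged tanycyte-like class the change was -0.65 with all mice (FDR = 0.425), -1.04 without FGF1 replicate 28 and -0.33 without vehicle replicate 22. Lpl passed the filter in no cluster.

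**Figure D4:**
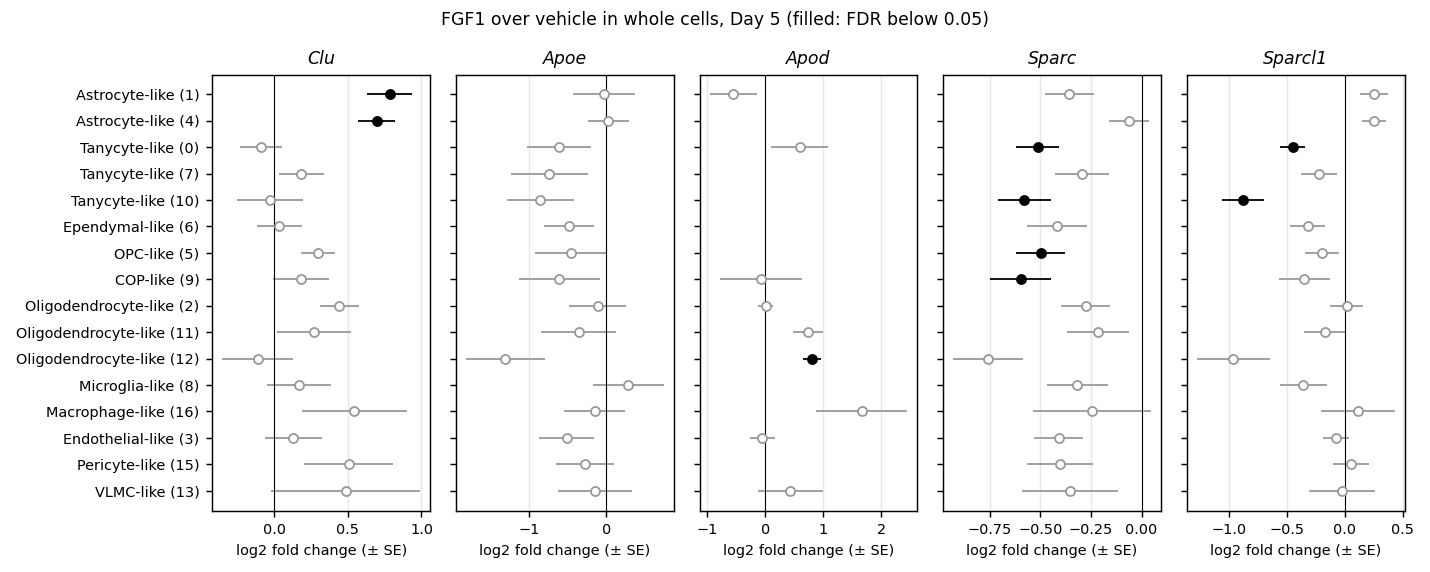
Fitted log2 fold change (FGF1 against vehicle, ± SE) of each member in each whole-cell cluster tested on Day 5. Filled points passed an FDR below 0.05. Sparc lies below 0 in all 16 clusters, and for Clu the points that passed are those of astrocyte-like clusters 1 and 4.

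The merged tanycyte-like and astrocyte-like classes of the same mice differed in their response. The interaction was fitted with mouse as a block, which removes what a mouse has in common across its cells. Of 15 member tests among the astrocyte-like, tanycyte-like and ependymal-like classes, 9 were called, against 8.36% of all tests (15.4% between astrocyte-like and tanycyte-like). The effect in tanycyte-like minus that in astrocyte-like cells was -1.16 ± 0.12 (SE, FDR = 1.94e-09) for Clu, -1.07 ± 0.14 (SE, FDR = 4.72e-06) for Sparcl1 and -0.66 ± 0.11 (SE, FDR = 2.78e-05) for Sparc. For Apod, low in both, it was 0.94 ± 0.28 (SE, FDR = 0.0143), lost without FGF1 replicate 36 or vehicle replicate 25 (FDR = 0.0637 and 0.0590). In single clusters it was 1.48 (cluster 0 minus 1, FDR = 0.0141), 0.46 (0 minus 4, FDR = 0.887) and 0.36 (7 minus 1, FDR = 0.877), and the other pairs gave no test.

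Apoe, not called within any class, differed between them by -0.997 ± 0.12 (SE, FDR = 2.51e-07). The log2 ratio of Apoe in astrocyte-like to tanycyte-like cells of a mouse was, as lowest, median and highest, 0.76, 1.38 and 1.70 after FGF1 and -0.07, 0.12 and 0.30 after vehicle. In the merged classes every FGF1 mouse had a higher ratio than every vehicle mouse, FGF1 replicate 28 and vehicle replicate 22 included. Such ratios were taken for the members alone, so the share of all genes whose ratios stay apart is not known. The same ratio was 2.71, 3.14 and 3.63 after FGF1 and 1.57, 1.81 and 2.16 after vehicle for Clu and 2.96, 3.47 and 3.78 after FGF1 and 1.90, 1.97 and 2.74 after vehicle for Sparcl1, without overlap. Since the clusters behind the classes differ by group, single clusters were compared as well, a choice made after seeing the data. Apoe then differed by -0.54 (cluster 0 minus 1, FDR = 0.000688), -0.73 (0 minus 4, FDR = 6.74e-06), -0.85 (10 minus 1, FDR = 0.0232), -0.88 (10 minus 4, FDR = 0.0675), -0.79 (7 minus 1, FDR = 0.000620) and -0.94 (7 minus 4, FDR = 0.0138). Clu and Sparcl1 passed in all 6 pairs but 7 minus 1 (-0.62, FDR = 0.0570, and -0.43, FDR = 0.270). Sparc passed for clusters 0 and 10 against 4 (-0.53 and -0.49), but not for 7 against 4 (-0.31, FDR = 0.252), nor for 0, 10 and 7 against cluster 1 (-0.07, -0.17 and 0.16, FDR = 0.887, 0.681 and 0.780). In these pairs the within-mouse ratios of the groups stayed apart for Apoe with clusters 1 and 0, 1 and 7, and 4 and 7, for Clu with 4 and 0, for Sparc with 4 and 0, and 4 and 10, and for Sparcl1 with all pairs of clusters 0 and 10. In the other pairs they overlapped.

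**Figure D5:**
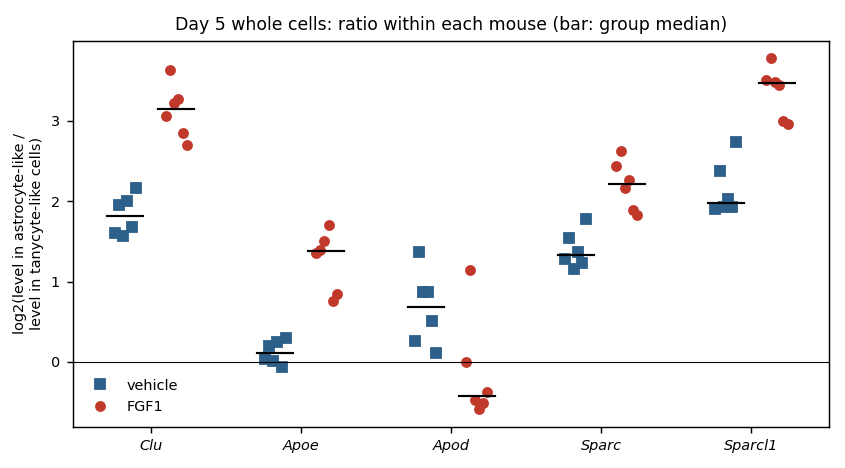
Log2 ratio of the level in astrocyte-like to that in tanycyte-like whole cells of the same mouse on Day 5, for 5 genes, with 1 point per mouse and a bar at the group median. Ratios of Clu, Apoe, Sparc and Sparcl1 do not overlap between FGF1 and vehicle, and those of Apod do. The share of all genes without overlap was not computed.

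Against the merged astrocyte-like class, the effect in ependymal-like cells was -0.96 ± 0.16 (SE, FDR = 1.99e-06) for Clu, -0.81 ± 0.16 (SE, FDR = 0.000157) for Apoe, -0.78 ± 0.16 (SE, FDR = 0.000318) for Sparcl1 and -0.53 ± 0.16 (SE, FDR = 0.0225) for Sparc, the last lost on leaving out FGF1 replicate 7 or 21 or vehicle replicate 20, 25 or 29 (FDR up to 0.123). Single clusters were compared here too, after seeing the data. Against cluster 4 the effect in cluster 6 differed by -0.79 for Clu, -0.64 for Apoe, -0.68 for Sparcl1 and -0.49 for Sparc (FDR = 4.71e-05, 0.00158, 0.000583 and 0.0510). Against cluster 1 it differed by -0.65, -0.42, -0.48 and 0.03 (FDR = 0.0386, 0.265, 0.178 and 0.979). Clu thus passed against both clusters, Apoe and Sparcl1 against cluster 4 alone, and Sparc against neither, beside the unequal split of clusters 1 and 4 between the groups given above. No member was called between tanycyte-like and ependymal-like cells (0.408% of all genes were). On Day 1, 1 of 14 such tests was called (0.419% of all tests): the Clu effect in Epend minus that in Tany was -1.66 ± 0.40 (SE, FDR = 0.0334), lost on leaving out any mouse but FGF1 replicate 3 (FDR up to 0.407). The Day 1 within-mouse log2 Apoe ratio of Astro to Tany was, in replicates 1, 2 and 3, 1.47, 0.76 and 0.88 after FGF1 and 0.14, 0.11 and -0.29 after vehicle. All 3 FGF1 mice lay above all vehicle mice, but the interaction was not called (-1.09 ± 0.39, SE, FDR = 0.338), and the share of all genes with such a separation is not known.

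Among 40 genes of lipoprotein assembly, loading and uptake (32 in the whole-cell tables), 5 rose and 3 fell in 92 tests over the astrocyte-like, tanycyte-like and ependymal-like clusters, against 2.12% of all tests in these clusters. By cluster, 3 of 22 were called in cluster 0, 2 of 22 in cluster 1, 1 of 15 in each of 4 and 6, 1 of 11 in cluster 7 and 0 of 7 in cluster 10, where 1.28% of all genes were called in cluster 6, 1.94% in cluster 7 and the shares given above in the others. Abca1, which loads cholesterol onto Apoe, rose in cluster 0 (0.51, FDR = 0.0292), cluster 1 (0.96, FDR = 0.000383), cluster 4 (0.73, FDR = 0.0383) and ependymal-like cluster 6 (0.74, FDR = 0.0145). Lcat, which esterifies cholesterol on the particles, rose in cluster 1 (0.90, FDR = 0.0103). The apolipoproteins Apoa1 and Apoc1 fell in cluster 0 (-0.84, FDR = 0.000806, and -0.72, FDR = 0.00159), and Apoc1 in cluster 7 (-0.73, FDR = 0.0107). The median change of the list was 0.16 in cluster 1 and -0.15 in cluster 0, against -0.01 and 0.00 over all genes. In the merged classes 6 rose and 5 fell in 68 tests, with 6.87% of all tests in the 3 classes called. They were 5 of 27 in astrocyte-like cells, against 12.6% of all genes there, 5 of 26 in tanycyte-like cells, against 5.08%, and 1 of 15 in ependymal-like cells. Lrp1 and Sorl1, receptors of the particles, rose in astrocyte-like cells (0.32, FDR = 0.0292, and 0.47, FDR = 0.00881), and Npc1, which exports cholesterol from lysosomes, fell in tanycyte-like cells (-0.90, FDR = 0.0268). On Day 1, 1 of 26 tests in Astro, Tany and Epend was called, against 6.28% of all tests there: the lipid transfer protein Pltp, which fell in Epend (-1.18, FDR = 0.0118), 1 of 3 list genes tested where 19.0% of all genes were called. Without FGF1 replicate 1 its call was lost, at -1.06 (FDR = 0.0717). The list median over the 26 tests was 0.02.

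Of 30 genes of the Sparc family and other matricellular and perisynaptic proteins, 1 fell in 60 tests over clusters on Day 5, the bridging protein Mfge8 in cluster 6 (-0.86, FDR = 0.0348), against 2.12% of all tests in these clusters. In the merged astrocyte-like class 6 rose and 1 fell of 18 (median 0.29 against -0.02 over all genes, of which 12.6% were called), among them the tenascins Tnc (2.00, FDR = 0.00110) and Tnr (0.77, FDR = 0.0340), Smoc1, a relative of Sparc (0.94, FDR = 0.000482), and Fbln5 (0.82, FDR = 0.00602). The class values come from clusters of unequal size in the groups, as above. In tanycyte-like cells none of 18 was called (median -0.06), beside the falls of Sparc and Sparcl1 themselves. On Day 1, 2 of 30 tests were called (list median -0.28), against 6.28% of all tests in Astro, Tany and Epend. Both were among 10 list genes tested in Tany, where 9.14% of all genes were called: the proteoglycan Ncan rose (3.84, FDR = 0.00241) and its relative Bcan fell (-1.95, FDR = 0.00464). Without FGF1 replicate 1 these were 3.47 (FDR = 0.0176) and -1.95 (FDR = 0.00857).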

How the data were processed

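Hypothalamic nuclei and dissociated cells of ob/ob mice were profiled with droplet libraries. The authors aligned reads to mm10 (GRCm38, introns included for nuclei) with Cell Ranger 1.2, filtered barcodes, clustered them in Seurat and deposited raw counts of UMIs per gene and barcode with a table of cell types (nuclei) and cluster numbers (cells). They removed likely doublets from the cells with Scrublet and left that step out for the nuclei, and no doublets were removed here. The percentages of mitochondrial and ribosomal UMIs in cells are as deposited by the authors. Tables of log-scale normalised values were not used.

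UMIs were summed per mouse and type or cluster where a mouse had at least 10 barcodes, and FGF1 was compared with vehicle wherever each group had at least 2 mice, with edgeR 4.0.16 in R 4.3.3 (filterByExpr, TMM, robust quasi-likelihood fit, no covariates, Benjamini-Hochberg FDR below 0.05 over all genes tested in that type). The SE is the absolute log2 fold change over the square root of F. Differences between types used mouse as a block. The fits were tested on simulated data. Mice are the replicates, 3 and 3 (Day 1 nuclei), 2 and 2 (Day 5 nuclei) and 6 and 6 (cells). Each batch of the deposited table holds 1 FGF1 and 1 vehicle mouse. Clusters were named from marker lists, and clusters 18 and 20 stayed unnamed. Shares of cells with a UMI were taken after thinning each cell to 757 UMIs, without shallower cells.

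Alternatives were DESeq2 1.42.0, RLE scaling, no filter on low counts, the batch or the replicate number as a block, a minimum of 20 barcodes, the stated mitochondrial and ribosomal limits (5% for nuclei, 20% for cells), merged clusters, and leaving out each mouse. Named are the 6 genes in every type, up to 4 called genes per direction of each list in astrocyte, tanycyte and ependymal types, and the 3 most similar genes by level. 1 gene that this rule names is not reported here. The members and lists were chosen with earlier results of these data known. Promoters come from RefSeq, found for Apoe, Apod and Sparc of the 6 genes.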

Additional observations from a re-analysis of the deposited data

Results flagged for a closer look

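Of 184 groups of 4 to 6 mice in which a lone mouse was looked for, 24 had a mouse whose gap to its nearest neighbour took an unusually large part of the group's range. Chance alone gives about 1 in 20. Values are TMM-scaled CPM in whole cells on Day 5. Most were Apoe values of the same mice. FGF1 replicate 28 stood above the other FGF1 mice for Apoe at 4783 in cluster 0 (others 1076 to 2166), 5878 in cluster 10 (others 1059.9 to 2494), 2475 in cluster 2 (others 713 to 1337), 2701 in cluster 5 (others 374 to 1108), 6812 in cluster 7 (others 1154 to 2711), 966 in cluster 9 (others 129.7 to 380.5), 2575 in the OPC-like class (others 357 to 1002), 1982 in the Oligodendrocyte-like class (others 284 to 891) and 5010.4 in the Tanycyte-like class (others 1091 to 2106). Vehicle replicate 22 stood above the other vehicle mice for Apoe at 6989 in cluster 0 (others 2004 to 3644), 8583 in cluster 1 (others 2429 to 4235), 3671 in cluster 8 (others 1171 to 1849), 8355 in the Astrocyte-like class (others 2446 to 4257) and 7078 in the Tanycyte-like class (others 2186 to 3966), and for Clu at 2648 in cluster 1 (others 1787 to 1956) and 2849 in the Astrocyte-like class (others 1764 to 1986).

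FGF1 replicate 28 was also high for Sparcl1, at 1680.1 in cluster 5 (others 833 to 1067) and 1641 in the OPC-like class (others 817 to 1039), and for Clu, at 572 in cluster 9 (others 323 to 415). FGF1 replicate 10 was high for Apod, at 1939.7 in cluster 12 (others 1534 to 1603) and 21657 in cluster 13 (others 4074 to 6787), and for Sparc, at 4272 in cluster 16 (others 1542 to 2138). In microglia-like cells Clu was low in FGF1 replicate 7, at 459.5 in cluster 8 (others 779 to 968), and in vehicle replicate 35, at 362 in cluster 8 (others 706 to 896). The clusters and classes of a mouse overlap, so these values are not independent.

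The FGF1 effect differed between cell types in 10 tests of the difference, described above. On the log2 scale these were, on Day 1, Clu in Epend minus Tany (-1.66), and on Day 5, tanycyte-like minus astrocyte-like Clu (-1.16), Sparcl1 (-1.07), Apoe (-0.997), Sparc (-0.66) and Apod (0.94), and ependymal-like minus astrocyte-like Clu (-0.96), Apoe (-0.81), Sparcl1 (-0.78) and Sparc (-0.53).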

How the results depend on the processing

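For the 6 genes, the 3 calls in Day 1 nuclei became 1 with the batch as a block and 1 to 5 on leaving out single mice. With the replicate block there were 2 calls. Same-numbered Day 1 mice did not deviate together (correlations of -0.57 to 0.61, over 0.1 in 4 of 15 pairs), so the numbers were not taken to pair them. The 0 calls in Day 5 nuclei became 1 with DESeq2, RLE scaling, the batch block or the stated mitochondrial and ribosomal limits, 4 without the filter on low counts, and 1 to 6 on leaving out single mice. Each of the last leaves 1 mouse in a group, which is assumed to vary like the other group. The call with the batch block was Clu in the neuronal type n29.Nr5a1/Adcyap1, and those with DESeq2, RLE scaling and the stated limits were Clu in Astro. The 9 calls in Day 5 cells became 5 to 11 on leaving out single mice and stayed between 7 and 11 otherwise. Between cell types, calls ranged from 0 to 1 (Day 1) and 7 to 10 (Day 5) on leaving out single mice, and from 0 to 0 between days. Lipoprotein partner calls ranged from 0 to 1 (Day 1, from 1, and 1 with the replicate block) and 5 to 11 (Day 5, from 8). Matricellular calls went from 2 on Day 1 to 4 with DESeq2, 6 without the filter and 3 with the replicate block (2 to 4 without single mice), and from 1 on Day 5 to 0 with DESeq2, 3 without the filter and 8 in merged classes, the last chosen after seeing the data (0 to 4 without single mice). Without FGF1 replicate 1, Apoe in Day 1 Tany nuclei reversed to -2.35 and Clu in Day 1 VLMC, on a single FGF1 mouse, to -2.76 (over single mice left out, -2.35 to 0.70 and -2.76 to 1.32). The causes were not tested. Over 29 called values, 413 alternative values kept the call and 71, from 17 of them, lost it. For Sparc, the effect in tanycyte-like minus astrocyte-like cells became 0.16 in clusters 7 and 1 alone, and that in ependymal-like minus astrocyte-like cells 0.029 in clusters 6 and 1 alone. Of 267 values not called, 20 passed in the same direction under at least 1 alternative, the 2 Day 1 values named above passed in the other direction, and in 121 the sign changed with no call on either side. Small Day 5 nuclear groups and counts of 3 to 16 UMIs in Day 1 Epend nuclei limit the precision.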

Other observations

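Outside the cells described so far, the vessel and immune clusters gave no member call in whole cells on Day 5. In endothelial-like cluster 3, Sparc was 2115, 2406 and 3232 after FGF1 and 2604, 3407 and 3727 after vehicle as lowest, median and highest mouse (log2 fold change -0.41, SE 0.12, FDR = 0.0935), which passed without FGF1 replicate 10 (-0.51, FDR = 0.0351). In microglia-like cluster 8 it was 2226, 2824 and 2980.3 after FGF1 and 2426, 3332 and 3940.3 after vehicle (log2 fold change -0.32, SE 0.15, FDR = 0.389). The ranges overlapped in both. In ependymal-like cluster 6, Sparc was 982, 1359 and 1631 after FGF1 and 1512, 1715 and 2097 after vehicle (log2 fold change -0.42, SE 0.15, FDR = 0.171) and Sparcl1 835, 1577 and 1868 after FGF1 and 1589, 2037 and 2169 after vehicle (log2 fold change -0.32, SE 0.15, FDR = 0.348), again with overlap. The Day 1 fall of Sparcl1 in Epend nuclei and this Day 5 value come from different preparations and were not compared by a test.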
